A study of Mus musculus with 8 samples.

Results

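The genes described here are receptors that take up lipoproteins and lipases that split the lipids those particles carry, measured in hematopoietic stem cells of mice given granulocyte colony-stimulating factor (G-CSF). The set lists 8 genes, of which 3 belong to the LDL receptor family (Vldlr, Lrp8 and Lrp1) and 5 are lipases (Lipg, Lpl, Lipc, Lipa and Lipe). They were found by gene symbol among probe sets annotated to a single gene. Of the 8 genes, 7 had such a probe set, out of 19938 genes in all. Each of the 7 had only 1, so no choice between probe sets arose. Lipc was not analysed here. The set was chosen by measured values, since Vldlr and Lipg came to attention because they differed between G-CSF and PBS on these same arrays, and the other genes were added as their relatives. The values of the 7 genes in that comparison are therefore a description, and their adjusted p-values lend the choice no independent support.

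The cells were KSL SLAM cells, a bone marrow fraction rich in stem cells that the labels define as negative for lineage markers, CD48 and CD41 and positive for c-Kit, Sca-1 and CD150. In the G-CSF group, mice received G-CSF at 125 mcg/kg, 2 times a day under the skin, and the samples are labelled 36 h. In the control group, mice received phosphate-buffered saline (PBS), also labelled 36 h. There were 4 samples per group, with cells pooled from 5 to 10 mice, and each was hybridized to a MoGene 1.0 ST array after amplification of the RNA. Strain, sex and age are not stated in the labels, and no group carried a genetic change that they name.

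Lipoproteins are particles of lipid and protein that carry triglyceride and cholesterol in blood. Lipases bound to the vessel wall release fatty acids from them, receptors of the LDL receptor family then bring the remnants into cells, and an acid lipase frees their cholesterol and fatty acids in the lysosome. Vldlr and Lrp8 also serve as receptors for reelin in the developing brain. In bone marrow, macrophages are known to express several of these genes.

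One array stood apart. PBS replicate 3 had an interquartile range of 1.68 log2 units over all genes, where the other 7 arrays had 2.42 to 2.80, and it correlated with them at 0.883 to 0.903, whereas they correlated with each other at 0.956 to 0.977. The c-Kit gene Kit had log2 intensities of 10.24 to 10.49 after G-CSF and 10.45 to 10.94 after PBS, and the CD150 gene Slamf1 had 6.05 to 7.16 after G-CSF and 5.94 to 7.24 after PBS. Among the genes of markers used to exclude cells, Cd48 had 7.24 to 8.95 after G-CSF and 6.66 to 7.57 after PBS, and Itga2b, which encodes CD41, had 7.18 to 7.74 after G-CSF and 7.06 to 7.72 after PBS. The values come without detection calls, so none of these genes can be called absent, and Ly6a, which encodes Sca-1, was not analysed here. Of 19 neutrophil markers measured, all 19 had a positive log2 fold change and 0 passed the threshold (limma, 17 at an unadjusted p under 0.05). Of all genes, 41.7% had a positive log2 fold change, 6.07% were higher at an unadjusted p under 0.05 and 0.0953% passed. The groups did not overlap for 9 of the 19 markers, all higher after G-CSF, against 3.37% of all genes. The mean log2 intensity of the 19 markers was 7.98 to 10.2 on the G-CSF arrays and 6.91 to 7.91 on the PBS arrays. In pooled cells, more cells of a type and more RNA per cell cannot be told apart.

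Vldlr was 7.14-fold higher after G-CSF and Lipg, whose PBS values may lie at background, was 7.12-fold higher as measured, while none of the other 5 measured genes passed the threshold. The threshold was an adjusted p under 0.05 from limma over all 19938 genes, which 0.0953% of all genes passed, every one of them higher after G-CSF. The 2 genes of 7 that passed are the 2 whose difference led to the set, so nothing is read from that share. The G-CSF and PBS values did not overlap for the same 2 genes, both higher after G-CSF, where 3.37% of all genes were higher without overlap, 2.78% were lower and 6.15% were either. The log2 fold change was above 0 for 5 of the 7 genes and had a median of 0.38, against 41.7% of all genes and a median of -0.07. Vldlr and Lipg, whose difference led to the set, are among the 5, so nothing is read from this count or median either. Without PBS replicate 3 the median of the 7 was 0.21.

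**Figure D1:**
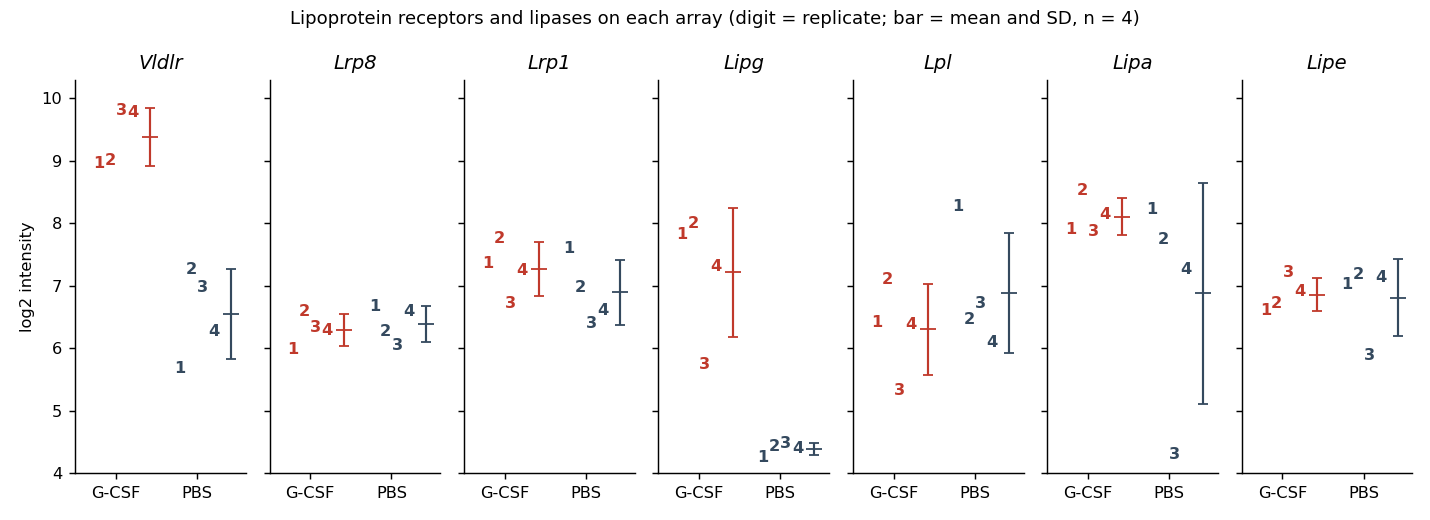
Log2 intensity of the 7 measured genes on each of the 8 arrays, G-CSF left and PBS right in each panel; a digit is the replicate number and the bar shows the mean and SD (n = 4). The Vldlr and Lipg values of the groups lie apart, whereas the other 5 genes overlap, and Lipa and Lipe are lowest in PBS replicate 3. Heights are not comparable between panels, since each gene has its own probes.

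Vldlr, the very low density lipoprotein receptor, binds particles rich in triglyceride through apolipoprotein E. G-CSF replicates 1 to 4 had log2 intensities of 8.96, 9.0, 9.80 and 9.77, and PBS replicates 1 to 4 had 5.67, 7.27, 6.98 and 6.27. The lowest G-CSF value exceeded the highest PBS value by 1.70 log2 units. The means were 9.38 ± 0.46 after G-CSF and 6.55 ± 0.72 after PBS (SD, n = 4 each), a log2 fold change of 2.84 ± 0.35 SE with a 95% interval of 2.08 to 3.60 (limma adjusted p = 0.0143). Only 6 of all genes had a larger log2 fold change. The adjusted p was 0.0605 without G-CSF replicate 2 and 0.068 without G-CSF replicate 4, with log2 fold changes of 2.96 and 2.71. It was 0.0815 after quantile normalization and 0.122 when all probe sets were tested.

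The arrays with most Vldlr were not those with most neutrophil markers. G-CSF replicates 3 and 4, where Vldlr was highest, had neutrophil marker means of 7.98 and 8.65, and G-CSF replicates 1 and 2 had 10.2 each. PBS replicate 1 had a marker mean of 7.91, close to the 7.98 of G-CSF replicate 3, and its Vldlr value of 5.67 was 4.13 log2 units below the 9.80 of that array. With the marker mean as a covariate the log2 fold change of Vldlr was 3.84 ± 0.45 SE, and 0 genes passed in that fit (limma adjusted p = 0.103 for Vldlr, 969 genes at an unadjusted p under 0.05). The neutrophil marker means of the groups did not overlap, at 7.98 to 10.2 after G-CSF and 6.91 to 7.91 after PBS. Estimates with this covariate, here and below, therefore rest on extrapolation and cannot separate the markers from the treatment. What part neutrophil RNA has in the Vldlr difference was not tested beyond these values.

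The start of Vldlr lies on mouse chromosome 19, and RefSeq (GRCm38.p6) gives 2 start sites. Their promoter windows, each 250 bases before and 50 after a start on the plus strand, are shown because Vldlr is the receptor with the large difference, and the first of 3 windows of its closest relative in the set, Lrp8, on the plus strand of chromosome 4, is shown beside them as a receptor without one. Capitals mark matches on either strand to 5 motifs, namely TTCNNNGAA for STAT factors, TCACNCCAC for sterol response, CACGTG (the E-box), the letters GAGGAA for PU.1, and TTGCNNAA for C/EBP factors.
Vldlr chr19:27216234-27216533: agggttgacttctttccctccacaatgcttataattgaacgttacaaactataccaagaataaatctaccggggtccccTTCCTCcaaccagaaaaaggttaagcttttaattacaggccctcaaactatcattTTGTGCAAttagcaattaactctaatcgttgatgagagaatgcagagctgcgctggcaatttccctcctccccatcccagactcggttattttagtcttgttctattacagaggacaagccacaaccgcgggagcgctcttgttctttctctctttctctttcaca
Vldlr chr19:27216770-27217069: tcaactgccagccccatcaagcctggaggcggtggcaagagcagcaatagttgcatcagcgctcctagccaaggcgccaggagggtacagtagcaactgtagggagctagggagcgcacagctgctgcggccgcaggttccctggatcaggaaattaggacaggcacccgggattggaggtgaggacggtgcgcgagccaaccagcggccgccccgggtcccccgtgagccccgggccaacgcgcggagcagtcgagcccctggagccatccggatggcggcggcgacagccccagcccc
Lrp8 chr4:107802635-107802934: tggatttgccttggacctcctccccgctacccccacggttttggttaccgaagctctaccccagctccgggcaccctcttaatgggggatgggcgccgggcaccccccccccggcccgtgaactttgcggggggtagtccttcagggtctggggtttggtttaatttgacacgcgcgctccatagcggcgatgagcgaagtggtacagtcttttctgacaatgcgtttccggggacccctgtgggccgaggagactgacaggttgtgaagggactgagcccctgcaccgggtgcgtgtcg
The first Vldlr window holds 1 PU.1 match that begins at position -171 relative to the start and 1 C/EBP match that begins at -116, both as the reverse complement. They do not overlap. The second Vldlr window and the 3 Lrp8 windows hold none of the 5 motifs. Members that did not pass the threshold hold matches too. The Lrp1 window has 1 STAT match and the Lipa window 2 PU.1 matches. The first Lipe window has 1 STAT, 1 E-box and 1 PU.1 match, and the second has 1 PU.1 match. The matches therefore do not set Vldlr apart from the other members. Over 32851 windows of the same length in the table, 28.3% hold the PU.1 letters, 10.8% the C/EBP letters, 8.3% the STAT letters, 7.15% the E-box and 1.24% the sterol response letters, shares that set how often such letters turn up. The first Vldlr window had a GC content of 43%, the second 68% and the Lrp8 window shown 62.7%. Windows of 5 genes of the set were examined, Vldlr, Lrp8, Lrp1, Lipa and Lipe. Those of Lipg, Lpl and Lipc were not analysed here. A letter match is not evidence of binding.

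Lrp8, also called apolipoprotein E receptor 2, is built much like Vldlr and shares ligands with it. Its log2 intensity was 5.97, 6.59, 6.33 and 6.27 after G-CSF, against 6.67, 6.27, 6.04 and 6.58 after PBS, in the order of the replicates. The groups overlapped over most of their range. The means were 6.29 ± 0.25 after G-CSF and 6.39 ± 0.29 after PBS (SD, n = 4 each). The log2 fold change was -0.10 ± 0.20 SE with a 95% interval of -0.54 to 0.35 (limma adjusted p = 0.839), so a difference as large as that of Vldlr lies outside the interval. The estimate was 0.0081 without G-CSF replicate 1.

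Lrp1 is a very large receptor of the same family that clears remnants, proteases and their inhibitors, and in textbooks it is abundant in macrophages. It had 7.36, 7.76, 6.71 and 7.24 after G-CSF and 7.60, 6.97, 6.40 and 6.60 after PBS. The groups overlapped, and PBS replicate 1 was second only to G-CSF replicate 2. This gave a log2 fold change of 0.38 ± 0.29 SE (limma adjusted p = 0.63). The 15 monocyte and macrophage markers measured had their highest means on the same 2 arrays, 8.06 in G-CSF replicate 2 and 8.14 in PBS replicate 1, with 6.76 to 7.75 on the other G-CSF arrays and 6.79 to 6.93 on the other PBS arrays. With that mean as a covariate, an alternative added after the data were seen, the log2 fold change of Lrp1 was 0.14 ± 0.18 SE, and with the neutrophil marker mean it was -0.39 ± 0.40 SE. What part macrophage RNA has in the Lrp1 values was not tested. The values of Vldlr and Lipg under the monocyte and macrophage covariate were 3.09 ± 0.26 SE and 2.62 ± 0.37 SE (limma adjusted p = 0.00348 and 0.034).

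**Figure D2:**
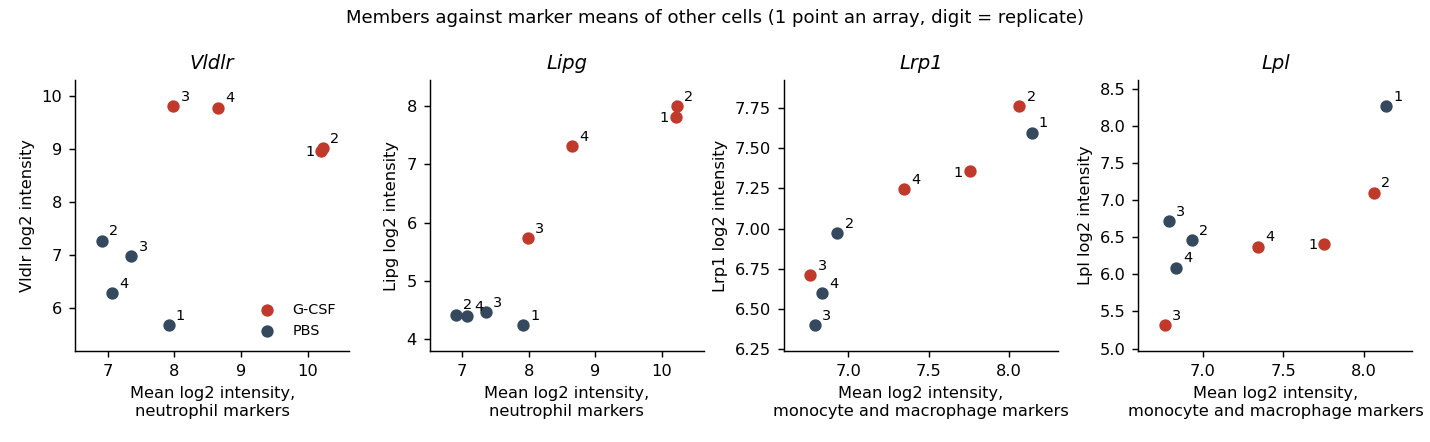
Log2 intensity of Vldlr and Lipg against the mean log2 intensity of 19 neutrophil markers, and of Lrp1 and Lpl against that of 15 monocyte and macrophage markers; 1 point is an array, G-CSF red and PBS dark blue, and digits are replicate numbers. Vldlr is highest in the 2 G-CSF arrays with the lower neutrophil marker means (7.98 and 8.65), whereas Lipg is lowest among the G-CSF arrays at 7.98.

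Lipg, endothelial lipase, is a secreted enzyme that acts mainly on phospholipids of HDL. G-CSF replicates 1 to 4 had log2 intensities of 7.81, 8.0, 5.73 and 7.31, and PBS replicates 1 to 4 had 4.25, 4.42, 4.47 and 4.40. All PBS arrays lay within 0.22 log2 units of each other, whereas the G-CSF arrays spread widely, with replicate 3 well below the others and still 1.26 log2 units above every PBS array. The means were 7.21 ± 1.03 after G-CSF and 4.38 ± 0.10 after PBS (SD, n = 4 each), a log2 fold change of 2.83 ± 0.41 SE with a 95% interval of 1.93 to 3.73 (limma adjusted p = 0.0278). Whether the PBS values of Lipg lie above background was not determined, and if they do not, its fold change and interval describe a lower bound. Leaving out 1 array ended the call in 7 of 8 cases, with adjusted p = 0.057 to 0.121 and log2 fold changes of 2.57 to 2.86. The exception was G-CSF replicate 3, without which the log2 fold change was 3.33 ± 0.21 SE (limma adjusted p = 0.000388). Lipg also missed the threshold after quantile normalization, median centring, a pseudocount of 16 and with all probe sets, at limma adjusted p = 0.0815, 0.054, 0.139 and 0.198 in that order.

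Among the G-CSF arrays Lipg followed the neutrophil markers. Replicates 1 and 2, with marker means of 10.2 each, had the 2 highest Lipg values, replicate 4 with 8.65 came next, and replicate 3 with 7.98 was lowest. The PBS arrays did not continue this order, since PBS replicate 1 with a marker mean of 7.91 had the lowest Lipg value of all, 4.25, against 5.73 in G-CSF replicate 3. With the neutrophil marker mean as a covariate the log2 fold change of Lipg was 1.48 ± 0.46 SE (limma adjusted p = 0.771). The groups did not overlap in that mean, so this estimate too rests on extrapolation. What part the neutrophil markers have in the difference was not tested beyond these values. The measured endothelial markers, which include genes that stem cells also express, went both ways. Of 12 endothelial markers, 7 lay above 0 on the log2 fold change scale, against 41.7% of all genes. The median was 0.04, against -0.07 for all genes, and the list mean was 5.85 to 6.05 after G-CSF and 5.65 to 5.94 after PBS. Of the 12, 0 passed, against 0.0953% of all genes, and 2 were higher at an unadjusted p under 0.05 (limma), against 6.07%. The 2 were Pecam1 and Emcn, named after their values were seen, with log2 fold changes of 1.18 ± 0.39 SE and 1.01 ± 0.39 SE (limma adjusted p = 0.424 and 0.501), and both were lowest in PBS replicate 3. What part endothelial cells have in the Lipg difference was not tested.

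Lpl, lipoprotein lipase, hydrolyses triglyceride in chylomicrons and very low density lipoproteins. It had 6.41, 7.10, 5.32 and 6.37 after G-CSF and 8.26, 6.46, 6.71 and 6.09 after PBS. The groups overlapped, with the highest value in PBS replicate 1 and the lowest in G-CSF replicate 3, which were also the arrays with the highest and the lowest monocyte and macrophage marker mean. The log2 fold change was -0.58 ± 0.47 SE, with a 95% interval of -1.61 to 0.44 (limma adjusted p = 0.635). It was -0.12 without PBS replicate 1 and -0.26 without G-CSF replicate 3. With the monocyte and macrophage marker mean as a covariate it was -1.0 ± 0.22 SE (limma adjusted p = 0.181), and with the neutrophil marker mean -2.03 ± 0.57 SE (limma adjusted p = 0.697). What part macrophage RNA has in the Lpl values was not tested.

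Lipa, lysosomal acid lipase, hydrolyses cholesteryl esters and triglycerides delivered to the lysosome. It had 7.91, 8.52, 7.86 and 8.14 after G-CSF and 8.23, 7.74, 4.29 and 7.26 after PBS. PBS replicate 3 lay 2.97 log2 units below the next lowest array, and PBS replicate 1 lay within the G-CSF range. The groups differed by a log2 fold change of 1.23 ± 0.68 SE (limma adjusted p = 0.578). Without PBS replicate 3 it was 0.37 ± 0.25 SE (limma adjusted p = 0.72), so most of the difference between the group means came from that array.

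Lipe, hormone-sensitive lipase, works inside cells, where it hydrolyses diglycerides and cholesteryl esters of lipid droplets. It had 6.60, 6.71, 7.21 and 6.90 after G-CSF and 7.03, 7.18, 5.88 and 7.13 after PBS. The groups overlapped, and PBS replicate 3 was again the lowest array. The log2 fold change was 0.05 ± 0.29 SE, with a 95% interval of -0.58 to 0.68 (limma adjusted p = 0.944). Without PBS replicate 3 the sign turned, to -0.26 ± 0.17 SE.

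**Figure D3:**
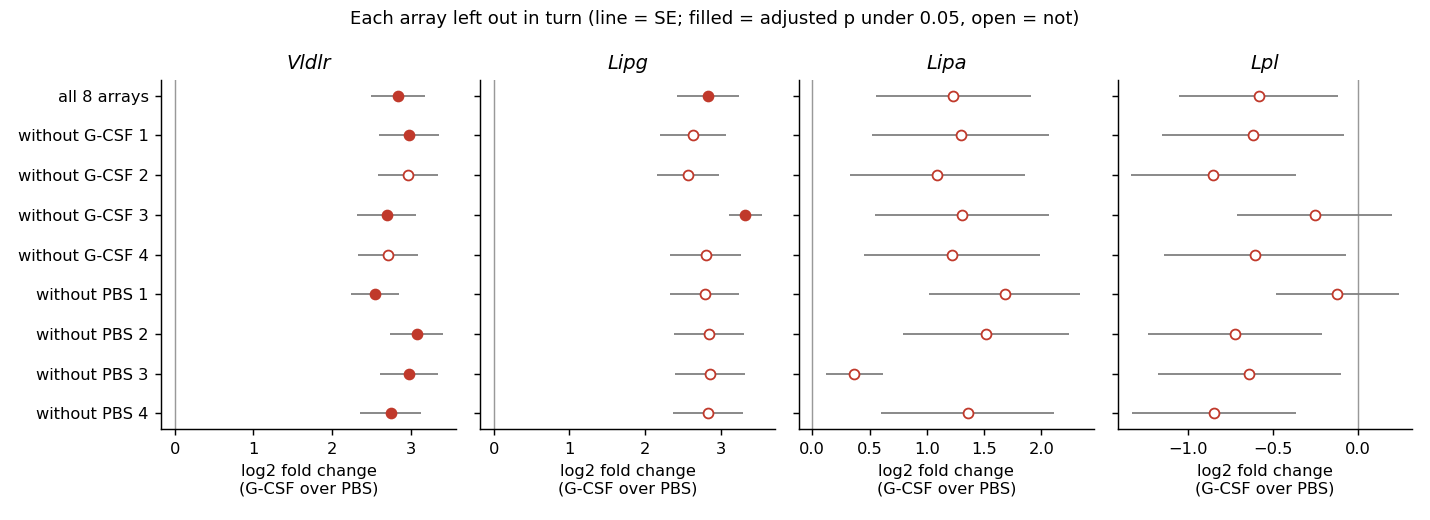
Log2 fold change, G-CSF over PBS, of Vldlr, Lipg, Lipa and Lpl with all 8 arrays and with each array left out; lines are the SE, filled points have a limma adjusted p under 0.05 and open points do not, and the horizontal axis differs between panels. Vldlr stays between 2.55 and 3.08 and Lipg between 2.57 and 3.33, while Lipa is 0.37 without PBS replicate 3.

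The wider families were set beside the members. Of 15 measured genes of the LDL receptor family, Vldlr was the only one past the threshold, which 0.0953% of all genes passed. Its difference led to the set, so nothing is read from that count. In the family 9 had a positive log2 fold change, against 41.7% of all genes, and the median was 0.11, against -0.07. At an unadjusted p under 0.05 (limma), 2 were higher and 0 lower, against 6.07% of all genes higher and 2.94% lower. Sorl1, a sorting receptor that is also related to a yeast sorting protein family, had the next lowest p. It had 7.56, 8.08, 6.46 and 6.85 after G-CSF and 6.26, 6.33, 6.57 and 6.05 after PBS, with a log2 fold change of 0.93 ± 0.31 SE (limma adjusted p = 0.433). Its 2 highest values fell on the G-CSF arrays with the highest neutrophil marker means, and with that mean as a covariate its log2 fold change was -0.12 ± 0.35 SE. What part neutrophil RNA has in the Sorl1 values was not tested. The median of the family was -0.05 without PBS replicate 3.

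Of 14 measured genes of the triglyceride lipase family, Lipg was the only one past the threshold, which 0.0953% of all genes passed. Its difference led to the set, so nothing is read from that count. In the family 3 had a positive log2 fold change, against 41.7% of all genes, and the median was -0.23, against -0.07. Most of the others are lipases of stomach, pancreas, skin or other epithelia. Whether the values of these lipases lie above background was not determined. Lipm, a lipase of skin, had -0.48 ± 0.21 SE (limma adjusted p = 0.545) and Lipf, gastric lipase, had -0.57 ± 0.31 SE (limma adjusted p = 0.578). Beside them, 15 genes of tissues unrelated to marrow, such as Alb of liver, had a median of -0.15 with 1 positive, and 0 passed. Of these, 0 had an unadjusted p under 0.05 (limma), against 6.07% of all genes higher and 2.94% lower. Without PBS replicate 3 the medians were -0.15 for the lipases and 0.03 for the genes of unrelated tissues, against -0.02 for all genes.

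**Figure D4:**
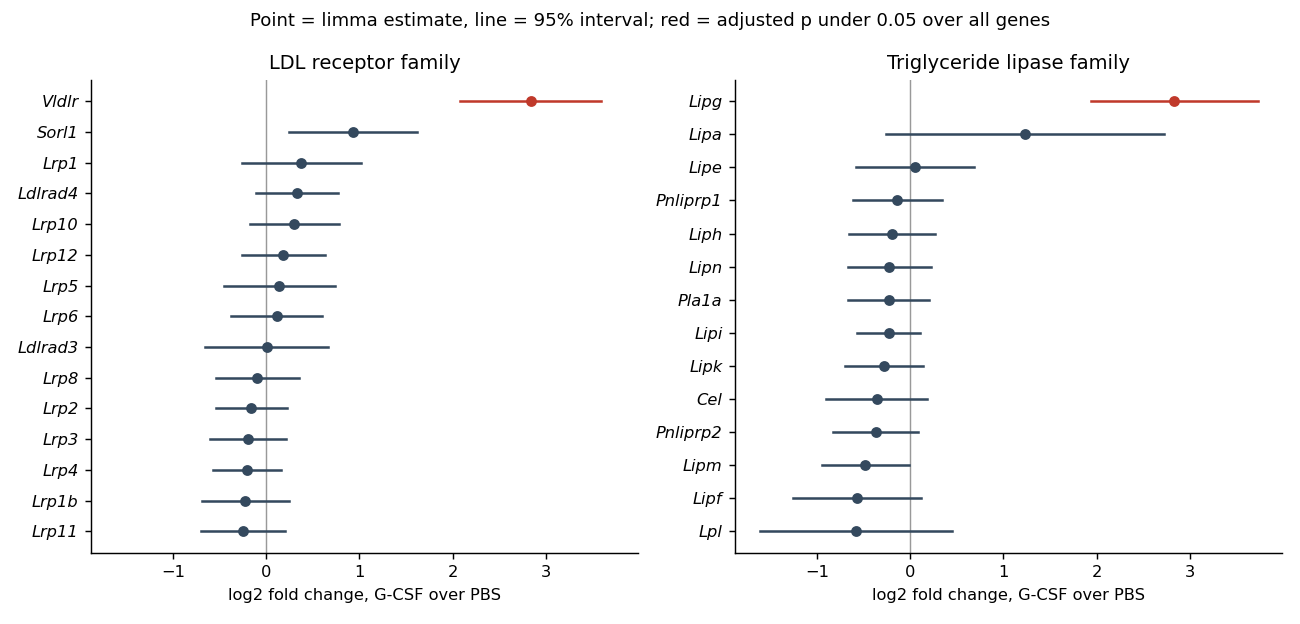
Log2 fold change, G-CSF over PBS, of the 15 measured genes of the LDL receptor family and the 14 of the triglyceride lipase family; points are limma estimates, lines 95% intervals, and red marks an adjusted p under 0.05 over all genes. Vldlr at 2.84 and Lipg at 2.83 lie far to the right of their families, whose next genes are Sorl1 at 0.93 and Lipa at 1.23.

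Genes that serve the receptors and lipases did not pass the threshold in any list examined. Among 12 ligands, chaperones and adaptors of the receptors, the median log2 fold change was 0.07 and 0 passed (limma, 2 higher and 1 lower at an unadjusted p under 0.05, against 6.07% of all genes higher and 2.94% lower). Snx17, a sorting nexin that returns receptors of this family to the cell surface, had 7.77, 7.51, 7.25 and 7.40 after G-CSF and 6.56, 6.82, 5.91 and 7.38 after PBS. Its log2 fold change was 0.81 ± 0.28 SE (limma adjusted p = 0.444), and the groups overlapped through PBS replicate 4. Lrpap1, the chaperone that keeps ligands off the receptors during their synthesis, had 7.83, 8.30, 8.30 and 8.42 after G-CSF and 7.71, 7.96, 6.87 and 7.52 after PBS. Its log2 fold change was 0.70 ± 0.24 SE (limma adjusted p = 0.454). Mylip, a ubiquitin ligase that sends Vldlr and Lrp8 to the lysosome, was the 1 gene of the 12 whose groups did not overlap, where 3.37% of all genes were higher without overlap, so nothing is read from its lack of overlap. It was picked out after its values were seen. It had 7.55, 7.44, 7.75 and 7.68 after G-CSF and 7.39, 7.39, 7.06 and 7.23 after PBS, with a log2 fold change of 0.34 ± 0.16 SE (limma adjusted p = 0.555). Thbs1, a matrix protein that is a ligand of Lrp1, had -0.54 ± 0.25 SE (limma adjusted p = 0.551).

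The 15 measured partners and inhibitors of lipoprotein lipases had a median of -0.02 and 0 passed (limma, 0 at an unadjusted p under 0.05, against 6.07% of all genes higher and 2.94% lower). Apoc1, an apolipoprotein that restrains lipoprotein lipase, had 6.79, 7.17, 4.75 and 6.28 after G-CSF and 6.51, 4.51, 5.55 and 4.65 after PBS, with a log2 fold change of 0.94 ± 0.54 SE (limma adjusted p = 0.579). Like Lpl it was low in G-CSF replicate 3, and with the neutrophil marker mean as a covariate its log2 fold change was -1.05 ± 0.50 SE. The cause of the Apoc1 values was not tested. Apoa5, an activator of lipoprotein lipase made in liver, had -0.39 ± 0.21 SE (limma adjusted p = 0.577).

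Of 18 measured genes of intracellular lipolysis and lipid droplets, 13 had a positive log2 fold change, against 41.7% of all genes, the median was 0.15 and 0 passed. Among the brighter genes alone the median was 0.23 for this list and 0.13 for all genes. At an unadjusted p under 0.05 (limma), 1 was higher and 0 lower, against 6.07% of all genes higher and 2.94% lower. Plin2, the protein that coats lipid droplets in most cells, had 8.03, 7.77, 7.67 and 7.93 after G-CSF and 7.32, 7.33, 6.73 and 7.19 after PBS. The groups lay 0.34 log2 units apart, and the log2 fold change was 0.71 ± 0.19 SE (limma adjusted p = 0.303). Plin2 was the 1 gene of the 18 whose groups did not overlap, where 3.37% of all genes were higher without overlap. Dgat1, which makes triglyceride from diglyceride, had 0.69 ± 0.33 SE (limma adjusted p = 0.554), and 0.36 without PBS replicate 3. Abhd5, the coactivator of adipose triglyceride lipase, had 0.38 ± 0.19 SE (limma adjusted p = 0.562).

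Of 16 measured genes of lipid uptake and efflux, 0 passed and the median was 0.18. At an unadjusted p under 0.05 (limma), 5 were higher and 1 lower, against 6.07% of all genes higher and 2.94% lower. Scarb2, a lysosomal membrane protein of the CD36 family, had 8.28, 8.25, 8.23 and 8.04 after G-CSF and 7.46, 6.72, 6.26 and 7.74 after PBS. The groups did not overlap, and the log2 fold change was 1.16 ± 0.29 SE (limma adjusted p = 0.265). In this list 2 genes were higher without overlap and 1 lower, against 3.37% of all genes higher and 2.78% lower. Npc1, which carries the cholesterol freed by Lipa out of the lysosome, had 0.57 ± 0.21 SE (limma adjusted p = 0.472). Cd36, a receptor for fatty acids and oxidized lipoproteins, went the other way, with 3.72, 3.88, 3.64 and 3.80 after G-CSF and 5.09, 3.89, 4.97 and 5.25 after PBS. PBS replicate 2 lay at the level of the G-CSF arrays and the other PBS arrays above them. The log2 fold change of Cd36 was -1.04 ± 0.27 SE (limma adjusted p = 0.296), and without PBS replicate 2 it was -1.34 (limma adjusted p = 0.0359). Of 19 alternatives, that was the only 1 in which Cd36 passed. Whether its G-CSF values lie above background was not determined.

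The 21 measured lipid-sensing transcription factors and genes of sterol and fatty acid synthesis had a median of -0.01 and 0 passed. At an unadjusted p under 0.05 (limma), 2 were higher and 0 lower, against 6.07% of all genes higher and 2.94% lower. Those with the lowest p were Dhcr7, of the last step of cholesterol synthesis, with 0.53 ± 0.21 SE (limma adjusted p = 0.517), and Ppard, a nuclear receptor for fatty acids, with 0.52 ± 0.21 SE (limma adjusted p = 0.52). Insig1, which holds the sterol sensor in the endoplasmic reticulum, had -0.77 ± 0.48 SE (limma adjusted p = 0.591) and -1.28 without PBS replicate 3 (limma adjusted p = 0.283). Its values were 8.36, 8.37, 7.25 and 8.35 after G-CSF and 8.86, 9.29, 7.32 and 9.94 after PBS.

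The genes with the profile most like that of Vldlr and of Lipg were different. Likeness was measured as the root mean square difference over the 8 arrays after each gene was centred on its own mean. The 4 genes nearest to Vldlr were the imprinted long RNA Rian at 0.64 log2 units, the mast cell and myeloid receptor Milr1 at 0.65, the matrix protein Tgfbi at 0.65 and the C-type lectin Clec4e at 0.73. Rian had 6.02, 6.98, 6.44 and 7.16 after G-CSF, against 4.30, 5.71, 4.27 and 3.76 after PBS. The 4 nearest to Lipg were Anxa1, a protein of the neutrophil marker list that limits inflammation, at 0.50, the secreted glycoprotein Lrg1 at 0.55, lactoferrin (Ltf), a neutrophil granule protein also in that list, at 0.55, and Ceacam10 at 0.56. Anxa1 had 10.55, 10.59, 9.02 and 9.59 after G-CSF, against 8.20, 7.38, 7.78 and 7.84 after PBS, so that it was lower in G-CSF replicates 3 and 4 than in replicates 1 and 2, as Lipg was. Lipg stood at rank 33 among the genes nearest to Vldlr, at 0.96 log2 units, and Vldlr at rank 70 among those nearest to Lipg. All these distances are small partly because the genes share the difference between the groups that Vldlr and Lipg were chosen for.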

How the data were processed

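Per the labels' protocols, the RNA of 4 G-CSF and 4 PBS samples went through a NuGen Ovation amplification and biotin labelling before it was put on MoGene 1.0 ST arrays. The authors' deposited values are intensities on a linear scale, 1 per probe set and array, and RMA is named in the submitters' processing notes. Which software and options were used is not given in the sources used here. The intensities ran from 2.15 to 16163, and log2 was taken before each test. No detection calls or scan dates were used. Precision is limited by how few arrays there were.

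The platform annotation gave 1 gene symbol for 21789 of the 35556 probe sets, several for 1621 and none for 12146. For 999 genes with more than 1 probe set, the brightest on average across the 8 arrays stood for the gene, giving 19938 genes. No filter on dim genes was applied. The test of G-CSF against PBS was that of limma 3.58.1 under R 4.3.3 (lmFit, then eBayes, 2-sided, Benjamini-Hochberg adjustment over all genes, threshold 0.05). The fit was tested on simulated data. The members and gene lists were chosen with earlier results of these data known.

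Besides the 8 genes of the set, the text names up to 4 genes of each list with the lowest p, Kit, Slamf1, Cd48, Itga2b and Ly6a, and the 4 genes nearest in profile to Vldlr and to Lipg, without predicted genes, accession-like names, receptor segments, snoRNAs, microRNAs and histones. The alternatives were other moderation of variances, array weights, the replicate number as a block, the brighter genes alone, quantile normalization, median centring, other probe set choices, each array left out, marker means as covariates and a pseudocount of 16. Promoter sequences came from RefSeq (GRCm38.p6). Some genes of the lists were not analysed here.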

Additional observations from a re-analysis of the deposited data

Results flagged for a closer look

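A value that stands far from the other 3 of its group was looked for in 38 genes, most of them named above. Over their 76 groups of 4 arrays, chance gives about 1 in 20. Such a value was found in 3 groups, which is no more than chance gives. Lipe was 5.88 in PBS replicate 3, below 7.03 to 7.18 on the other PBS arrays. Apoa5 was 5.96 in PBS replicate 3, above 5.43 to 5.51 on the other PBS arrays. Insig1 was 7.25 in G-CSF replicate 3, below 8.35 to 8.37 on the other G-CSF arrays.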

How the results depend on the processing

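The number of genes past the threshold, 19 with all arrays, was 40 with array weights, 7 after quantile normalization and 3 to 31 with each array left out. It was 0 with all 35556 probe sets in the limma fit (2743 at an unadjusted p under 0.05) and 0 with the neutrophil marker mean as a covariate (969 at an unadjusted p under 0.05). Of the 7 measured genes, 2 passed with all arrays and 0 to 2 with each array left out. It was 1 among the brighter genes (which leaves Lipg untested), after median centring, with a pseudocount of 16, and when quantile normalization was joined to leaving out PBS replicate 3. It was 0 after quantile normalization, with all probe sets and with the neutrophil covariate. Vldlr passed in 15 of 20 alternatives, with a log2 fold change of 2.55 to 3.84, and Lipg in 6 of 19, with 1.48 to 3.33. Both kept a positive sign throughout, and the cause of the lost calls was not tested. With the replicate number as a block 23 genes passed and the same count of 2 members. Whether the numbers pair the arrays was not settled. The deviations of same-numbered arrays correlated at -0.03 to 0.14, and the block changed no call of the 7 genes.

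Signs turned for Lipe, Lrp8, Lrp1, Sorl1, Apoc1, Abhd5, Slamf1 and Itga2b, none of which had passed the threshold. With each array left out, Lipe ranged from -0.26 to 0.18, Lrp8 from -0.22 to 0.0081, Slamf1 from -0.065 to 0.40 and Itga2b from -0.0089 to 0.21. Quantile normalization gave -0.0066 for Lipe and -0.087 for Itga2b. Joined to leaving out PBS replicate 3, it gave -0.35 for Lipe, -0.14 for Slamf1 and -0.089 for Itga2b. Array weights gave -0.18 for Lipe and -0.036 for Slamf1. The neutrophil covariate gave -0.39 for Lrp1, -0.12 for Sorl1, -1.05 for Apoc1, -0.032 for Abhd5, -0.51 for Slamf1 and -0.32 for Itga2b. The monocyte and macrophage covariate gave -0.0036 for Slamf1 and -0.020 for Itga2b. Among the brighter genes the median log2 fold change of all genes was 0.13, against -0.07 without that filter.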
